A study of Homo sapiens with 39 samples.

Results

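The guides examined here come from a pooled CRISPR knockout screen in A375 human melanoma cells, whose BRAF gene carries an activating mutation and which were made MED12-null before the screen. MED12 KO cells carrying a homemade epigenetic library were grown to day 8 in vemurafenib at 2 µM or in DMSO, the solvent, with 3 libraries of each. All 11150 guides whose name ends in a gene symbol and a number were taken, 10 for each of 1115 genes, out of 12214 guides in the table and 89655 in the guide libraries of the whole series. Every library, DMSO included, is from MED12 KO cells, so the comparison gives the drug's effect on guide abundance in MED12-null cells only. Other libraries of the same screen were taken at day 0 (3 libraries) and at day 14 in both arms (3 libraries each), and a separate whole-genome library was screened in MED12 KO cells. In all, the series holds 39 libraries in 13 groups. The labels do not say whether MED12 KO cells were 1 clone or a pool, or whether replicate numbers stand for separate infections or cultures. In the main fits p-values measure the spread between these libraries that is left after differences between replicate numbers are taken out. That spread may be technical.

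In a pooled knockout screen each cell carries 1 integrated guide, and the share of reads from that guide in genomic DNA tracks the share of cells that carry it. Vemurafenib blocks the mutant BRAF kinase, which drives the RAF, MEK and ERK cascade and cell division in such melanomas. A guide that is more abundant under the drug than in DMSO marks a gene whose loss goes with relatively more cells under the drug, and a guide that is less abundant marks the reverse. MED12 is a subunit of the kinase module of Mediator, the complex that links transcription factors to RNA polymerase.

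The 6 day-8 libraries held 16385695 to 20814734 counted reads, with a median of 1014 to 1259 reads per guide, and all 11150 guides passed the filter on low counts. Control guides (83 named CTRL, 267 against AAVS1 and 714 named Zhang) had median log2 fold changes of -0.04, -0.02 and -0.005, and SDs of 0.159, 0.203 and 0.174. The SD over gene-targeting guides was 0.33. No control guide passed the threshold in either fit described below. All 3 pairs of libraries had the same sign for 27.6% of gene-targeting guides, and for 20.5%, 24.7% and 25.8% of the CTRL, AAVS1 and Zhang guides. Guides against MED12, already lost in these cells, summed to 780, 878 and 847 CPM (counts per 1000000 reads of the library, TMM-scaled) under vemurafenib, against 926, 866 and 947 CPM in DMSO. The groups overlapped, and MED12 did not pass (log2 fold change -0.13, edgeR adjusted p = 1 with 15 libraries and 0.406 with 6). Guide counts do not measure expression, so neither the loss of MED12 nor the melanoma identity of the cells could be checked.

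At day 8 few genes were called different between vemurafenib and DMSO, and among the genes described guides against NF1, SETDB1 and TP53BP1 rose in both fits used here. Reads of the 10 guides of a gene were summed and tested with edgeR, with the replicate number as a block and an adjusted p under 0.05 as the threshold. With all 15 libraries of the screen in 1 fit, 4 of 1115 genes rose (0.359%), 3 of which are described here, and 0 fell, and 23 genes had an unadjusted p under 0.05 (2.06%). With the 6 day-8 libraries alone, 21 genes rose (1.88%) and 13 fell (1.17%), and 150 had an unadjusted p under 0.05 (13.5%). The biological coefficient of variation was 0.181 in the 15-library fit, which includes the day-14 libraries, and 0.0705 in the 6-library fit, which had 2 residual degrees of freedom. Leaving out a pair changed the 6-library count: 1 gene rose without pair 1, 6 without pair 2 and 13 without pair 3, and 0, 0 and 1 fell. Of the 33 genes described below that passed with 6 libraries, SETDB1 passed without any pair, NF1, TP53BP1, SMAD4 and NF2 without pair 2 or 3, 8 more in 1 of these cases, and 20 in none. The adjusted p of both fits is given below for some genes and that of 6 libraries alone for others. The edgeR log2 fold changes of genes in this comparison are those of the 15-library fit, also where they stand beside an adjusted p of 6 libraries. For EIF3G, for example, the value was 0.42 with 15 libraries and 0.44 with 6. A gene that "rose" or "fell" in the 6-library fit alone is written as such. Of the 20 risers and 13 fallers described, 22 were named by a set rule, and the others are marked. That rule itself picks genes by their p in this same comparison, so being named by it is no separate support. Robust rank aggregation over guides, in which a gene is called from the ranks of its 10 guides, called 16 genes higher (1.43%) and 17 lower (1.52%) with 15 libraries, and 16 (1.43%) and 14 (1.26%) with 6. With 6 libraries it did not call the fallers CDK2, KDM1A, RFWD2 and ALDH6A1 (rank aggregation adjusted p between 0.0715 and 0.112). Nor did it then call the risers METTL3, EIF3G, BRD1, METTL14, METTL17 and PIAS4 (adjusted p between 0.0593 and 0.734). With 15 libraries it called 11 of the 20 risers and all 13 fallers described here in the same direction, from the same reads as the edgeR fits. Hence "in the 6-library fit only" below refers to the edgeR fits. Rank aggregation takes the guides of a gene as independent draws, so its p-values measure how far guides agree. It does not take libraries as the replicates, and all its calls given here carry that limit. limma on the mean log2 CPM over guides called 2 higher (0.179%) and 0 lower with 15 libraries, and 8 (0.717%) and 4 (0.359%) with 6. The 3 vemurafenib libraries lay above all 3 DMSO libraries for 34 genes (3.05%) and below them for 27 (2.42%), and all 3 pairs were higher for 210 genes (18.8%) and lower for 162 (14.5%).

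NF1 encodes neurofibromin, which switches RAS off by stimulating its GTPase activity. Its guides summed to 823, 785 and 1081 CPM under vemurafenib, against 397, 409 and 408 CPM in DMSO. Each vemurafenib library was far above each DMSO library, and the DMSO libraries lay close together. The log2 ratio within pairs was 1.13 ± 0.24 (SD, n = 3 pairs), and NF1 rose in both fits (log2 fold change 1.13, edgeR adjusted p = 0.0152 with 15 libraries and 4.13e-06 with 6). All 10 NF1 guides were higher under the drug, 8 of them in all 3 pairs, with single-guide log2 fold changes of 0.05 to 2.17 in the 6-library fit. The call was lost when any 1 of the 6 day-8 libraries was left out of the 15-library fit (adjusted p = 0.0542 to 0.133), while the log2 fold change stayed between 1.01 and 1.21. NF2, the merlin tumour suppressor of the Hippo pathway, was listed with NF1 as a brake on RAS and MAPK signalling. Its guides summed to 2151, 1849 and 2496 CPM under vemurafenib, against 1722, 1389 and 1915 CPM in DMSO. The groups overlapped, because replicate 2 was low in both arms, but each vemurafenib library was above the DMSO library of the same number. NF2 rose in the 6-library fit only (log2 fold change 0.37, edgeR adjusted p = 0.00025, and 0.364 with 15 libraries), with 7 of 10 guides higher. With 6 libraries limma did not call NF2 (adjusted p = 0.278), while rank aggregation did (adjusted p = 0.0241, and 0.495 with 15 libraries). In that list of 3 measured genes 1 rose in the 15-library fit (beside 4 of 1115), and all had positive log2 fold changes. The median was 0.37, beside 0.007 over all genes. It is the value of NF2 itself and so adds no separate result.

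SETDB1 encodes the methyltransferase that places H3K9 trimethylation on silenced loci, together with TRIM28 and the HUSH complex. Its guides summed to 1863, 1741 and 1439 CPM under vemurafenib, against 971, 929 and 836 CPM in DMSO. The groups did not overlap, and the gain was of similar size in each pair (log2 ratio 0.88 ± 0.08, SD, n = 3 pairs). SETDB1 rose in both fits (edgeR adjusted p = 0.00294 with 15 libraries and 3.71e-07 with 6) and kept its call without any 1 of the 6 day-8 libraries (adjusted p = 0.0207 to 0.0437). All 10 guides were higher, 9 of them in all 3 pairs, with log2 fold changes of 0.59 to 1.58 in the 6-library fit. MPHOSPH8, the H3K9-methyl reader of HUSH, was chosen after its values were seen. It summed to 2240, 2820 and 2641 CPM under vemurafenib, against 1854, 2375 and 1995 CPM in DMSO. These groups overlapped, each pair was higher under the drug, and MPHOSPH8 rose in the 6-library fit only (log2 fold change 0.31, edgeR adjusted p = 0.00105, and 0.585 with 15 libraries). Of its 10 guides 6 were higher in the 15-library fit, and 4 were higher in all 3 pairs. With 6 libraries limma did not call MPHOSPH8 (adjusted p = 0.362), while rank aggregation did (adjusted p = 0.00388, and 0.071 with 15 libraries). TRIM28, the corepressor that brings SETDB1 to DNA and likewise chosen after its values were seen, had 370, 389 and 398 CPM under vemurafenib, against 366, 321 and 313 CPM in DMSO. It did not pass by summed counts (edgeR adjusted p = 0.366 with 6 libraries) but passed by rank aggregation with 15 libraries (adjusted p = 0.0457) and not with 6 (0.0937). Of the 14 genes of H3K9 silencing and HUSH measured, 1 rose in the 15-library fit (beside 4 of 1115 over all genes) and 0 fell. Of the 14, 12 had positive log2 fold changes (beside 599 of 1115), and the median was 0.11.

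TP53BP1 encodes 53BP1, a scaffold at DNA double-strand breaks that favours end joining. Its guides were among the most abundant of the genes described here, with 3648, 3001 and 3151 CPM under vemurafenib, against 2434, 2141 and 2410 CPM in DMSO. The lowest vemurafenib library exceeded the highest DMSO library. TP53BP1 rose in both fits (log2 fold change 0.49, edgeR adjusted p = 0.0152 with 15 libraries and 1.95e-05 with 6), and each of its 10 guides was higher in all 3 pairs. Without any 1 of the 6 day-8 libraries it no longer passed the 15-library fit (adjusted p = 0.0748 to 0.183), with log2 fold changes of 0.45 to 0.52. Of all 1115 genes, 7 had all 10 guides higher and 8 had all 10 lower.

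SMAD4, the shared transducer of TGF-beta and BMP signals, summed to 1718, 1435 and 1665 CPM under vemurafenib, against 1155, 1061 and 1120 CPM in DMSO. The groups did not overlap and 9 of 10 guides were higher. Of the edgeR fits SMAD4 rose in that of 6 libraries only (log2 fold change 0.53, edgeR adjusted p = 3.53e-05, and 0.0889 with 15 libraries). With 15 libraries DESeq2 and rank aggregation called it higher (adjusted p = 0.00485 and 1.32e-06). SMAD3, a receptor-activated SMAD, had 811, 756 and 594 CPM under vemurafenib, against 743, 577 and 685 CPM in DMSO, and did not pass (log2 fold change 0.09, edgeR adjusted p = 0.74 with 6 libraries).

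Guides against BRAF, the drug's own target, summed to 483, 452 and 484 CPM under vemurafenib, against 341, 314 and 330 CPM in DMSO. The groups were well apart, and the log2 ratio was nearly the same in each pair (0.53 ± 0.02, SD, n = 3 pairs). BRAF rose in the 6-library fit only (edgeR adjusted p = 0.00395, and 1 with 15 libraries). Its guides were uneven: 5 of 10 were higher and 2 lower in all 3 pairs, and their log2 fold changes in the 6-library fit ran between -0.31 and 1.05. MAP3K1, a kinase upstream of JNK, had 957, 937 and 972 CPM under vemurafenib, against 748, 709 and 817 CPM in DMSO, without overlap. It rose in the 6-library fit (log2 fold change 0.34, edgeR adjusted p = 0.00682, and 0.568 with 15 libraries). MAP2K4, the JNK-activating kinase below it, had 1113, 729 and 873 CPM under vemurafenib, against 809, 637 and 734 CPM in DMSO, and rose in that fit only (0.30, edgeR adjusted p = 0.0312). MAP2K4 was chosen for mention after its values were seen. In the list of 10 RAS-MAPK kinases and adaptors 0 passed with 15 libraries and these 3 rose with 6, beside 21 of 1115 over all genes, and the median log2 fold change was 0.07.

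PTPN11, the phosphatase SHP2 that couples receptor kinases to RAS, was chosen after its values were seen. Its guides summed to 466, 680 and 286 CPM under vemurafenib, against 511, 706 and 459 CPM in DMSO. The groups overlapped and the summed reads did not pass (log2 fold change -0.30, edgeR adjusted p = 0.288 with 6 libraries), but 6 of 10 guides were lower in all 3 pairs and rank aggregation called the gene lower (adjusted p = 0.00166 with 15 libraries and 0.0131 with 6). In pair 3 the log2 ratio was -0.68, against -0.13 and -0.05 in pairs 1 and 2.

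In the list of receptor kinases and SRC, ERBB2 and EGFR were lower under the drug in the 6-library fit. ERBB2, the HER2 receptor, summed to 643, 474 and 632 CPM under vemurafenib, against 751, 669 and 787 CPM in DMSO, without overlap. EGFR, also chosen after its values were seen, had 680, 813 and 607 CPM under vemurafenib, against 847, 955 and 777 CPM in DMSO, and was lower in each pair. Both fell in the 6-library fit only (log2 fold changes -0.35 and -0.30, edgeR adjusted p = 0.0247 and 0.0202, and 1 with 15 libraries). FGFR1 had 651, 718 and 699 CPM under vemurafenib, against 897, 835 and 777 CPM in DMSO, without overlap, and did not pass (edgeR adjusted p = 0.0576 with 6 libraries). Rank aggregation called FGFR1 lower (adjusted p = 0.0327 with 15 libraries and 0.0192 with 6). Of 11 receptor kinases and SRC measured, 9 had negative log2 fold changes, beside 516 of 1115 over all genes, and the median was -0.11. None of the 11 passed with 15 libraries and 2 fell with 6, beside 13 of 1115 over all genes.

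Subunits of chromatin complexes moved in both directions. KMT2D, the H3K4 methyltransferase of enhancers also called MLL4, summed to 693, 682 and 666 CPM under vemurafenib, against 993, 919 and 892 CPM in DMSO. Its partner KDM6A, the H3K27 demethylase UTX, had 367, 347 and 436 CPM under vemurafenib, against 500, 503 and 594 CPM in DMSO. In both genes the groups did not overlap, and both fell in the 6-library fit only. For KMT2D the log2 fold change was -0.46 (edgeR adjusted p = 0.000606, and 0.263 with 15 libraries) with 0 of 10 guides higher, and for KDM6A it was -0.48 (edgeR adjusted p = 0.00529, and 0.364 with 15 libraries) with 1 of 10 higher. DESeq2 on all 15 libraries called the fall of both (adjusted p = 0.00872 for KMT2D and 0.00751 for KDM6A). MEN1, the menin subunit of the MLL1 and MLL2 complexes, was chosen after its values were seen: it had 374.9, 370.3 and 357 CPM under vemurafenib, against 546, 413 and 424 CPM in DMSO. It did not pass by summed reads (edgeR adjusted p = 0.138 with 6 libraries) and was called lower by rank aggregation (adjusted p = 0.0307 with 15 libraries). Of 20 genes of MLL, COMPASS and UTX, 12 had negative log2 fold changes (beside 516 of 1115), and the median was -0.07.

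Among BAF remodeller subunits, SMARCD1 and SMARCC1 moved oppositely. SMARCD1 summed to 1597, 1451 and 1536 CPM under vemurafenib, against 1216, 1089 and 1207 CPM in DMSO. SMARCC1, a scaffold of the core, had 894, 756 and 888 CPM under vemurafenib, against 1084, 1186 and 1031 CPM in DMSO. The groups did not overlap for either, and both passed in the 6-library fit only (SMARCD1 log2 fold change 0.39, edgeR adjusted p = 0.000512; SMARCC1 -0.37 with 15 libraries and -0.38 with 6, edgeR adjusted p = 0.0164). The list of 21 BAF and PBAF subunits had a median of -0.02, with 8 positive and 13 negative.

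In the RNA methylation list METTL3, METTL14 and METTL17 were higher under the drug in the 6-library fit. METTL3, the enzyme that writes N6-methyladenosine in mRNA, had 1002, 890 and 851 CPM under vemurafenib, against 800, 653 and 647 CPM in DMSO. Its partner METTL14, chosen after its values were seen, had 1176, 1310 and 1083 CPM under vemurafenib, against 1015, 1077 and 951 CPM in DMSO. METTL17, a factor of mitochondrial ribosome assembly, had 656, 690 and 754 CPM under vemurafenib, against 507, 555 and 649 CPM in DMSO. The groups did not overlap in any of these genes, and all rose in the 6-library fit only (log2 fold changes 0.39, 0.23 and 0.30, edgeR adjusted p = 0.00273, 0.0344 and 0.0348). METTL14 and METTL17 lost that call without any 1 pair. Rank aggregation called neither METTL14 (adjusted p = 0.195 with 15 libraries and 0.267 with 6) nor METTL17 (0.362 and 0.103). Nor did limma with 6 libraries (adjusted p = 0.162 and 0.131). METTL3 was called by limma with 6 libraries (adjusted p = 0.0335). Rank aggregation called METTL3 with 15 libraries (adjusted p = 0.00713) and not with 6 (0.0593). All 8 measured members of the list had positive log2 fold changes, beside 599 of 1115 over all genes, with a median of 0.16. None passed with 15 libraries and 3 rose with 6, beside 21 of 1115.

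Subunits of acetyltransferase complexes were also among the genes that rose with 6 libraries. ING5, a reader subunit of MYST acetyltransferase complexes, summed to 933, 941 and 509 CPM under vemurafenib, against 726, 676 and 390 CPM in DMSO. BRD1, a scaffold of the HBO1 complex, had 514, 393 and 597 CPM under vemurafenib, against 387, 311 and 443 CPM in DMSO. Groups overlapped in both genes, since replicates differed by more than the drug effect, but every pair was higher and both rose in the 6-library fit (log2 fold changes 0.41 and 0.39, edgeR adjusted p = 0.0034 and 0.0252, and 1 with 15 libraries). TADA1, a core subunit of the SAGA coactivator, had 964, 1065 and 819 CPM under vemurafenib, against 766, 844 and 646 CPM in DMSO, and its log2 ratio was 0.33, 0.34 and 0.34 in the 3 pairs. TADA2B, of the SAGA acetyltransferase module, had 927, 867 and 692 CPM under vemurafenib, against 743, 698 and 592 CPM in DMSO. Both rose in the 6-library fit only (edgeR adjusted p = 0.00488 and 0.0291, and 1 with 15 libraries). Of 26 SAGA and ATAC subunits 19 had positive log2 fold changes, with a median of 0.09, and of 18 acetyltransferases and MYST partners 13 did, with a median of 0.06, beside 599 of 1115 over all genes. No member of either list passed with 15 libraries and 2 of each rose with 6, beside 21 of 1115.

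Other genes fell in the 6-library fit, all with an edgeR adjusted p of 1 in the 15-library fit. KDM1A, the H3K4 demethylase LSD1, had 591, 458 and 457 CPM under vemurafenib, against 660, 618 and 638 CPM in DMSO. CDK2, a kinase of S-phase entry, had 398, 393 and 399 CPM under vemurafenib, against 485, 521 and 528 CPM in DMSO. NTMT1, which methylates protein N-termini, had 502, 501 and 507 CPM under vemurafenib, against 647, 639 and 600 CPM in DMSO. None of these groups overlapped, and the log2 fold changes were -0.36 for KDM1A, -0.37 for CDK2 and -0.32 for NTMT1 (edgeR adjusted p = 0.0344 for each). RFWD2, the ubiquitin ligase COP1, fell by 0.30 on the log2 scale (edgeR adjusted p = 0.0312) with overlapping groups and 0 of 10 guides higher. The fallers chosen after their values were seen were BPTF, the reader of the NURF remodeller (-0.26), CDK13, a kinase of transcription elongation (-0.32), L3MBTL3, a reader of methylated lysine (-0.31), and ALDH6A1, a mitochondrial dehydrogenase (-0.24), with edgeR adjusted p between 0.0344 and 0.0488. The risers chosen in the same way were PRDM15, a PRDM-family zinc-finger protein (0.30), EIF3G, a translation initiation subunit (0.42), and PIAS4, a SUMO ligase (0.24). They rose in the 6-library fit only, with edgeR adjusted p between 0.00529 and 0.0353. Rank aggregation called PRDM15 (adjusted p = 0.00683 with 15 libraries and 0.0147 with 6). It called neither EIF3G (adjusted p = 0.827 and 0.734) nor PIAS4 (0.402 and 0.24). CUL3, the scaffold of a ubiquitin ligase, had 690, 939 and 623 CPM under vemurafenib, against 593, 655 and 573 CPM in DMSO. It did not pass (log2 fold change 0.28, edgeR adjusted p = 0.0989 with 6 libraries).

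Several gene lists had no member past the threshold in either fit. The list of 35 Polycomb genes had a median log2 fold change of -0.02 with 15 positive, although EZH2, the H3K27 methyltransferase, had 433, 465 and 499 CPM under vemurafenib, against 325, 356 and 438 CPM in DMSO (edgeR adjusted p = 0.0878 with 6 libraries). The list of 13 PI3K and mTOR genes had a median of -0.01, 23 INO80, SRCAP and TIP60 genes 0.01, 10 arginine methyltransferases 0.07, and 13 DNA methylation genes -0.02. No core essential gene listed passed in either fit. Positive log2 fold changes were seen in 6 of 10 proteasome genes, with a median of 0.03. Of the other core essential lists, 27 of 36 ribosomal protein genes and 15 of 17 spliceosome genes had positive log2 fold changes, with medians of 0.05 and 0.11, as did 4 of 5 DNA replication and 3 of 3 RNA polymerase genes (0.13 and 0.26), beside 599 of 1115 over all genes. Among cell-cycle drivers, where CDK2 alone passed and with 6 libraries only, 7 of 13 were positive with a median of 0.004, and CCND1, the cyclin D1 gene, had 349, 436 and 299 CPM under vemurafenib, against 253, 360 and 240 CPM in DMSO (edgeR adjusted p = 0.0878 with 6 libraries).

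No single guide passed in the 15-library fit, where 86 of 12214 had an unadjusted p under 0.05 (0.704%), and DESeq2 called 3 higher. In the 6-library fit 22 rose (0.18%) and 4 fell (0.0327%). The guides named here, and the genes SMARCB1 and METTL1, were therefore chosen after their values were seen. NF1_4 had the largest gain among those described, with 285, 126 and 152 CPM under vemurafenib, against 67.7, 26 and 33.7 CPM in DMSO (log2 fold change 2.17, edgeR adjusted p = 6.29e-07). The guide was most abundant in replicate 1 of both arms, and every vemurafenib library exceeded every DMSO library. Among the risers were 5 guides against SETDB1, 4 against NF1 and 2 against TP53BP1. METTL1_4, against a tRNA methyltransferase, rose (18.2, 14.6 and 80.3 CPM under vemurafenib, against 8.76, 3.99 and 22.1 CPM in DMSO), while the METTL1 gene did not pass (edgeR adjusted p = 0.484 with 6 libraries). The guides that fell were PTPN11_1, EGFR_3, SMARCB1_5 and KMT2D_8. PTPN11_1 had 7.66, 54.8 and 13.7 CPM under vemurafenib, against 27.3, 133 and 63.9 CPM in DMSO (log2 fold change -1.77, edgeR adjusted p = 0.00167). SMARCB1, a core BAF subunit, did not pass as a gene (log2 fold change -0.20, edgeR adjusted p = 0.132 with 6 libraries).

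Values against day 0 show in which arm some of these genes moved. These comparisons share the day-8 libraries with the main one, and each used the 6 libraries compared, an alternative added after the data had been seen. Scaling on control guides in place of TMM lowered the median log2 fold change of all genes by 0.37 for vemurafenib and by 0.36 for DMSO, so a gain or loss is named only where both scalings passed. With those 6 libraries and TMM, 341 genes were higher (30.6%) and 136 lower (12.2%) under vemurafenib than at day 0, and 407 (36.5%) and 202 (18.1%) in DMSO. With 15 libraries these counts were 28 (2.51%) and 15 (1.35%) under vemurafenib, and 28 (2.51%) and 19 (1.7%) in DMSO. Of 20 described genes that were higher under the drug, 8 had gained guides since day 0 under vemurafenib. They were NF1, SETDB1, TP53BP1, MPHOSPH8, NF2, SMAD4, SMARCD1 and MAP3K1, and 6 of them, all but NF1 and MAP3K1, had also gained in DMSO. NF1 had 354 ± 18.8 CPM at day 0 (SD, n = 3). Its log2 fold change against day 0 was 1.35 under vemurafenib with TMM and 0.96 with control scaling (edgeR adjusted p = 2.66e-12 and 1.82e-09), and 0.20 and -0.16 in DMSO (adjusted p = 0.162 and 0.25). SETDB1 had gained 1.90 and 1.52 under vemurafenib, and 1.01 and 0.65 in DMSO. All 8 also passed against day 0 under vemurafenib in the 15-library fit with TMM. BRAF, BRD1 and EIF3G had lost guides since day 0 in DMSO with 6 libraries. With 15 libraries BRAF passed (edgeR adjusted p = 0.0394), and BRD1 and EIF3G did not (0.0652 and 0.398). For BRAF the log2 fold change in DMSO was -0.74 with TMM and -1.11 with control scaling. Under vemurafenib it was -0.20 and -0.59 (edgeR adjusted p = 0.108 and 1.49e-05). Of the 13 genes that were lower under the drug, KDM6A, CDK2, ERBB2, KDM1A and NTMT1 had lost guides since day 0 under vemurafenib under both scalings. None of the 13 had done so in DMSO under both scalings. With control scaling alone these 5 had also lost guides in DMSO, by -0.33, -0.40, -0.46, -0.32 and -0.38 in that order (edgeR adjusted p between 1.8e-07 and 0.0029). With TMM none of the 5 had. None of the 5 losses under vemurafenib passed the 15-library fit (edgeR adjusted p = 0.0718, 0.18, 0.0699, 0.3 and 0.131 in that order). SMARCC1 had gained guides in DMSO (0.93 and 0.57), while under vemurafenib its values were 0.57 and 0.18 (edgeR adjusted p = 1.65e-05 and 0.0843).

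The whole-genome screen of MED12 KO cells used other libraries at the same dose and day, with mostly 4 guides per gene and 73465751 to 87591804 reads per library. Over 1089 genes measured in both screens, 626 had the same sign (57.5%). Among the 34 genes that passed the 6-library fit 30 had the same sign (88.2%), 19 of 21 higher and 11 of 13 lower. With all 15 libraries of that screen in 1 fit, 0 of 19101 genes passed, with 28 at an unadjusted p under 0.05 (0.147%). With its 6 day-8 libraries alone 9 rose (0.0471%) and 4 fell (0.0209%), with 1424 at an unadjusted p under 0.05 (7.46%). NF1 and SETDB1 were among the risers and PTPN11 among the fallers. NF1 guides summed there to 28.9, 45.9 and 33.2 CPM under vemurafenib, against 18.4, 15.4 and 10.6 CPM in DMSO (log2 fold change 1.29, edgeR adjusted p = 0.0207). SETDB1 guides summed to 141, 177 and 167 CPM under vemurafenib, against 71.9, 69.8 and 94.8 CPM in DMSO (1.04, edgeR adjusted p = 0.00249). For both genes the groups did not overlap. PTPN11 had a log2 fold change of -1.45 (edgeR adjusted p = 0.0207). TP53BP1 was higher in pairs 2 and 3 and lower in pair 1 and did not pass (0.41, edgeR adjusted p = 0.65). BRAF, with 8.27, 9.57 and 7.32 CPM under vemurafenib, against 11.6, 8.41 and 12.2 CPM in DMSO, did not pass there and had a log2 fold change below 0. No test of the difference between the screens was made.

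The labels do not say whether the day-14 libraries of the same screen came from other cultures or a later harvest of the same ones. Deviations of day-8 vemurafenib libraries from their group mean correlated with those of same-numbered day-14 vemurafenib libraries at 0.865, 0.863 and 0.866. With same-numbered day-14 DMSO libraries the correlations were 0.711, 0.721 and 0.718. The day-14 values are therefore not independent of those at day 8. At day 14, 84 genes were higher under vemurafenib than in DMSO (7.53%) and 7 lower (0.628%) in the 15-library fit, and 13 (1.17%) and 0 in a fit of the 6 day-14 libraries. Scaled on control guides the 15-library fit gave 24 higher and 26 lower, and leaving out 1 day-14 library gave 40 to 159 higher (40 without DMSO library 3, 159 without vemurafenib library 1) and 2 to 21 lower. The difference between the day-14 and day-8 effects passed for 9 genes (0.807%), all higher at day 14, and for 5 (0.448%) in a fit of the 12 libraries of both days. SETDB1 had a log2 fold change of 1.58 at day 14 in the 6-library fit, beside 0.88 at day 8, and the difference did not pass with 12 libraries (0.70, edgeR adjusted p = 0.128). KMT2D and KDM6A, which fell at day 8 in the 6-library fit, were also lower at day 14 in the 15-library fit (log2 fold changes -0.43 and -0.73, edgeR adjusted p = 0.034 and 0.00332), and did not pass the fit of the 6 day-14 libraries (adjusted p = 0.312 and 0.188).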

How the data were processed

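Guide sequences were amplified by PCR from genomic DNA, and the authors deposited raw counts of reads per guide and library, with no normalization. Per the submitters' processing notes, bcl2fastq, HISAT2 and HTSeq were used; their versions and the guide reference were not given in the sources used here, and guide sequences were not analysed here. The protocols in the labels name no molecular identifier, so reads are not independent molecules and depth covers counting error only.

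In R 4.3.3, edgeR 4.0.16 (quasi-likelihood, 2-sided, TMM from the guide table) was run on counts summed over the 10 guides of a gene, with 1 mean per group over all 15 libraries and the replicate number as a block, adjusted by Benjamini-Hochberg over 1115 genes, threshold 0.05. The 6-library fit, no block, DESeq2 1.42.0, control-guide scaling, a mean count of at least 100, no filter, limma 3.58.1 on mean log2 CPM over guides (0.5 added), rank aggregation (alpha 0.25) and leaving out each library were alternatives. Guides were kept at a minimum count of 10 and a minimum total count of 15. CPM are counts per 1000000 reads, TMM-scaled and summed over guides. Pairing was checked on the deviations of same-numbered vemurafenib and DMSO libraries from their group means, which correlated at 0.731, 0.755 and 0.746. The tests were tested on simulated counts.

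Genes were named where they passed with non-overlapping groups and at least 7 in 10 guides of the same sign, up to 12 per direction. Members of a gene list that passed were also named, up to 4 per direction. Where no member of a list passed, up to 2 with the lowest p in the same comparison were named. MED12, BRAF, NF1, NF2 and CUL3 were always named. The rule was applied to the 15-library calls. Other genes are marked as chosen after their values were seen. Members and lists were chosen with earlier results of these data known. One gene past the threshold, with its guides, is not reported here. Of 1115 symbols, 1069 were current, 43 were older names of 1 gene, and 3 were not matched.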

Additional observations from a re-analysis of the deposited data

Results flagged for a closer look

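The vemurafenib effect at day 14 exceeded that at day 8 for 6 of the genes named above, by the test of the difference between days in the 15-library fit. Beyond the replicate block, this test does not model the deviations that same-numbered libraries of the vemurafenib arm share between days. The difference in log2 fold change was 1.65 for NF1 (edgeR adjusted p = 0.00766), 1.01 for NF2 (0.00476), 0.90 for SMAD4 (0.0185), 0.78 for TP53BP1 (0.00557), 0.97 for BRD1 (0.0383) and 0.71 for MAP3K1 (0.0353). In that test 9 of 1115 genes were higher (0.807%) and 0 lower. NF1 thus had a log2 fold change of 2.78 at day 14 and 1.13 at day 8, and SMAD4 1.43 at day 14 and 0.53 at day 8. With the 12 libraries of days 8 and 14 alone NF1, NF2, SMAD4 and TP53BP1 passed, while BRD1 and MAP3K1 did not (edgeR adjusted p = 0.0685 and 0.0997). Scaling on control guides in place of TMM lowered the median difference of all genes by 0.22 on the log2 scale, and none of these genes then passed: the values were 1.44 for NF1 (edgeR adjusted p = 0.0575), 0.80 for NF2 (0.0752), 0.57 for TP53BP1 (0.0575), 0.68 for SMAD4 (0.322), 0.76 for BRD1 (0.322) and 0.49 for MAP3K1 (0.53). None passed without the replicate block either, where the adjusted p was 0.051 for NF1 and SMAD4.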

How the results depend on the processing

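Without the replicate block 0 genes rose and 0 fell in edgeR between vemurafenib and DMSO at day 8 (14 had an unadjusted p under 0.05), against 4 and 0 with it, and 0 lists in place of 3 had a member past the threshold. With the 6 day-8 libraries and the block, 21 genes rose and 13 fell, 22 guides rose and 4 fell, and 17 lists had a member past it. DESeq2 gave 2 lower genes, 3 higher guides and 6 lists. limma on mean log2 CPM called 2 genes higher, and rank aggregation 16 higher and 17 lower. With 6 libraries limma called 8 higher and 4 lower, and rank aggregation 16 and 14. Leaving out any 1 day-8 library left 2 genes higher, 0 lower and 2 lists, and SETDB1 alone of the described genes passed each time. Leaving a pair out of the 6-library fit left 1 to 13 genes higher and 0 to 1 lower, and 19 to 34 guides higher (34, 19 and 25 without pairs 1, 2 and 3) and 4 to 13 lower.

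Against day 0, 7 of the named genes were higher and 2 lower under vemurafenib. Lower counts were 1 without the block, 19 with limma, 21 with control scaling, 0 to 1 without a library, and 17 higher and 10 lower with 6 libraries. In DMSO, 7 were higher and 5 lower, with 2 lower without the block, 16 with limma, 4 higher and 22 lower with control scaling, 3 to 6 and 1 to 3 without a library, and 18 and 12 with 6 libraries. For the day difference 6 passed, and 0 without the block, with limma or with control scaling, and 3 to 7 without a library. At day 14, 84 genes rose and 7 fell, 28 and 2 without the block, 28 and 22 with limma, 24 and 26 with control scaling, 40 to 159 and 2 to 21 without a library, and 13 and 0 with 6 libraries. The whole-genome counts of 0 and 0 became 9 and 4 with 6 libraries.

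Of single-gene values over the alternatives 842 kept direction and side of the threshold, 55 came to pass it, 16 no longer passed and 11 changed sign, all in genes that did not pass. Under limma these were DNMT3B 0.011, PSMD6 0.16, RPA1 -0.16, RPL13A -0.028, SMAD3 -0.028 and SUZ12 -0.017. Under rank aggregation they were MED19 -0.010, PSMD6 0.31, RPA1 -0.28 and SMAD3 -0.043. Without 1 library SMAD3 ran between -0.022 (without DMSO replicate 2) and 0.29. List medians turned to 0.017 for ISWI, NURF and CHD and 0.00035 for deacetylase corepressors under limma. Without 1 library they ran between -0.025 and 0.043 (without vemurafenib replicate 1) for other histone methyltransferases, and between -0.0084 and 0.035 (without DMSO replicate 3) for DNA methylation. The causes of these shifts were not tested.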

Other observations

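Rank aggregation called 3 further genes higher that summed reads did not, chosen after their values were seen. ATM, the kinase that signals DNA double-strand breaks, summed to 725, 827 and 1083 CPM under vemurafenib, against 732, 695 and 828 CPM in DMSO, with 9 of 10 guides higher (rank aggregation adjusted p = 0.033 with 15 libraries and 0.0856 with 6, edgeR adjusted p = 0.222 with 6). RBM10, a splicing regulator, had 231, 245 and 283 CPM under vemurafenib, against 160, 205 and 253 CPM in DMSO (rank aggregation adjusted p = 0.0111 with 15 libraries and 0.289 with 6). WHSC1L1, the H3K36 methyltransferase NSD3, had 664, 615 and 533 CPM under vemurafenib, against 556, 531 and 452 CPM in DMSO, and was called with both (rank aggregation adjusted p = 0.0431 and 0.0467).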
